A study of Mus musculus with 32 samples.

Results

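Nuclear genes for complexes III, IV and V of the respiratory chain were followed in whole brain of 4 mouse strains. The set held 38 named genes (8 of complex III, 15 of complex IV and 15 of complex V). They were found by their symbol in the annotation of the array, and 37 had at least 1 probe. A gene was kept when a probe had a detection p-value under 0.01 in at least 6 arrays, which left 34 genes (6, 14 and 14 of the 3 complexes) among 8674 genes in all. RNA came from naïve adult male mice, with 1 Illumina Mouse Ref8 v2 array per mouse. There were 10 C57BL/6J (B6), 10 R8, 6 R2 and 6 DBA/2J (D2) animals. In R8 the donor is D2, with a short stretch of distal chromosome 1 placed in B6 mice. In R2 the donor is B6, with a longer stretch of that region placed in D2 mice. The congenics were bred from full-congenic parents in the study's colony and housed in the same room as the background strains. Each congenic is 1 line, so any other donor DNA it holds is shared by all its animals.

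Complex III passes electrons from ubiquinol to cytochrome c, complex IV passes them from cytochrome c to oxygen, and both pump protons across the inner mitochondrial membrane. Complex V, the ATP synthase, lets the protons back through a ring of c subunits and makes ATP. Neurons depend on this chain for most of their ATP. Several subunits exist as isoforms from separate genes: Cox6a2 and Cox7a1 are best known from heart and skeletal muscle, Cox6b2 from testis, and Cox4i2 from lung, whereas Cox6a1, Cox6b1, Cox7a2 and Cox4i1 are the widely expressed forms. Atp5g1, Atp5g2 and Atp5g3 encode the same mature c subunit behind different import peptides. The core subunits encoded by mitochondrial DNA were not among the genes followed.

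The arrays were of similar depth, with a median signal of 380.2 to 578.5 and 10834 to 12283 probes detected per array. D2 replicate 1 stood apart: its median correlation with the other D2 arrays was 0.9802, whereas no other array was under 0.9874 with its own strain. No pair of arrays was identical. Signals are given as background-corrected, quantile-normalized log2 values, and a difference of 1 is a doubling. Levels of different probes are not on 1 scale and were not compared as amounts of RNA. In whole tissue, fewer cells of a type and less RNA per cell cannot be told apart.

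Promoters are shown for the 3 c-subunit genes and for Cox7a1 and Cox7a2, because within each family the genes differed in their strain pattern. The windows run from 250 bases before to 50 bases after an annotated transcription start (GRCm38.p6) and are written 5′ to 3′ on the gene's strand. The RefSeq genes Cox7a2, Atp5g3 and Atp5g1 begin farther upstream than the start used, at 79771422, 73912464 and 96075694 on their chromosomes. Capitals mark matches to GCATGCGC on either strand, the core of the site of nuclear respiratory factor 1 (NRF1).
Atp5g1, chr11:96075582-96075881, minus strand: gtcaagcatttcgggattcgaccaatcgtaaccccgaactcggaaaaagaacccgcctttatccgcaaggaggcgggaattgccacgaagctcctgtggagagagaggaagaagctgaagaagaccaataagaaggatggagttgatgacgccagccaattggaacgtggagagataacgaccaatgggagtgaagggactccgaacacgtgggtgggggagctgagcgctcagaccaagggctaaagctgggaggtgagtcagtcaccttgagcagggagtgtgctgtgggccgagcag
Atp5g2, chr15:102670998-102671297, minus strand: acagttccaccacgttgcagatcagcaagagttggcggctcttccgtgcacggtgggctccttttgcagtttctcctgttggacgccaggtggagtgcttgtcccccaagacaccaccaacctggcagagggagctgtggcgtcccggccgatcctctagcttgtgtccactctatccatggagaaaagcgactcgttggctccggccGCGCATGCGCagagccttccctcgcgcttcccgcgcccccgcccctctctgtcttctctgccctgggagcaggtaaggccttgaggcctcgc
Atp5g3, chr2:73911277-73911576, minus strand: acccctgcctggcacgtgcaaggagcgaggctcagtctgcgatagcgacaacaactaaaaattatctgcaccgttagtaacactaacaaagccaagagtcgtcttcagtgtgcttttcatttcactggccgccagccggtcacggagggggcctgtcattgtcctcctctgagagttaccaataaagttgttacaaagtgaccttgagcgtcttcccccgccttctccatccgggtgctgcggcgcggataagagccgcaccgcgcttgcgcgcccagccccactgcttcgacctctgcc
Cox7a1, chr7:30183921-30184220, plus strand: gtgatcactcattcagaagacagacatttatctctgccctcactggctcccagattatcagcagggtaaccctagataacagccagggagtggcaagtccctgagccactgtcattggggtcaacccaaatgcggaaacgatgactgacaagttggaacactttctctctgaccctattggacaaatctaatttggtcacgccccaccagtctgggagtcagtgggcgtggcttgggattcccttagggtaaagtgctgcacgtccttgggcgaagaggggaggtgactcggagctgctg
Cox7a2, chr9:79759804-79760103, minus strand: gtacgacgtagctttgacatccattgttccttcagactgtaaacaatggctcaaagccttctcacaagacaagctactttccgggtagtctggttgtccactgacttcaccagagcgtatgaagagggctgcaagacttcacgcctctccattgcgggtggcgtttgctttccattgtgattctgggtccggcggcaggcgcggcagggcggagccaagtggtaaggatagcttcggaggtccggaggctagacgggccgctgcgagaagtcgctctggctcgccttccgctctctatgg

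Among these 5 windows only that of Atp5g2 held the NRF1 core, as 2 overlapping matches. Promoters were at hand for 28 of the 37 genes on the array (31 windows). The NRF1 core was in 19.4% of the 31 windows (6 of them, of Uqcrc1, Cycs, Cox6a1, Atp5g2, Atp5k and Atp5l) and in 2.71% of all 32851 windows of this length. CCGGAAG, a core bound by ETS factors such as the GA-binding protein, was in 29% of the member windows (9 of them, of Uqcrh, Cox6a1, Cox6b1, Cox8a, Atp5e, Atp5h, Atp5j, Atp5k and Atp5l) against 8.86% of all windows. It was searched on both strands, no match of it overlapped an NRF1 match, and none of the 5 windows shown held it. The median GC content was 56.3% in the member windows and 52.7% in all windows. Its part in the motif shares was not tested. A match is a run of letters and not evidence of binding. All windows come from the reference build, and no promoter sequence was compared between strains. The windows therefore cannot show whether a promoter differs between strains. The part of these motifs in the strain differences, that of Atp5g2 included, was not tested.

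The first question was whether the subunits differ between the D2 and the B6 background, whichever chromosome 1 segment is carried. Between the mean of R2 and D2 and the mean of B6 and R8, 8 of 34 genes changed by limma's moderated test at an adjusted p under 0.05 (23.5%), whereas 28% of all 12351 probes tested were called in that comparison. On the D2 background 2 genes were higher and 6 were lower, beside 15.1% and 12.9% of all probes. The called genes were Cox7a1, Cox6a2, Cox5a, Cox5b and Cox7a2l of complex IV and Atp5g2, Atp5g1 and Atp5h of complex V. No gene of complex III was called (0 of 6, with 1 at an unadjusted p under 0.05), against 5 of 14 in complex IV and 3 of 14 in complex V. The median absolute difference of the 34 genes was 0.049, and that of all probes was 0.086. The probes of these genes were brighter (median log2 signal 14.39, against 10.32 for all probes). Their differences were not set against those of equally bright probes. The 3 largest differences were those of Atp5g2, Cox7a1 and Cox6a2, each measured by 1 probe. Whether the B6 and D2 sequences differ under the probes was not tested.

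**Figure D1:**
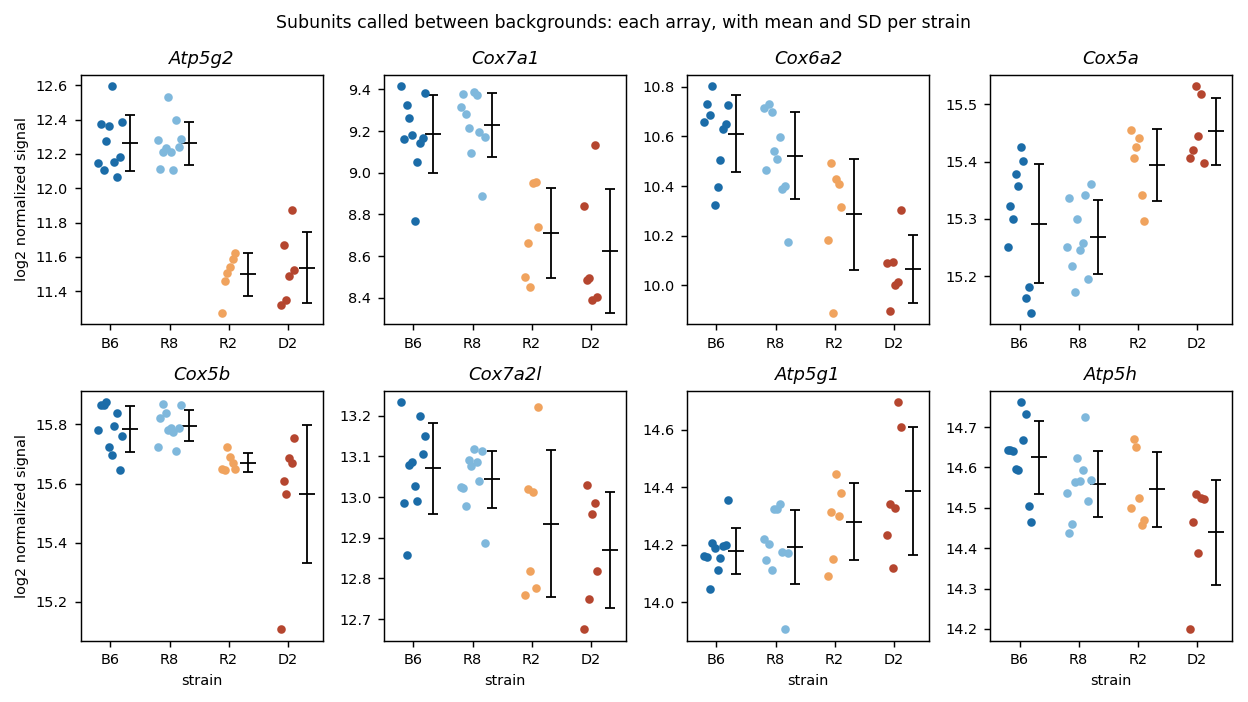
Log2 normalized signal (y axis) of the 8 genes called between backgrounds in each strain (x axis), 1 point per array, with the strain mean and SD beside the points. Atp5g2 separates the backgrounds with no overlap, while the other 7 genes overlap; the lowest D2 point of Cox5b (15.11) is D2 replicate 1.

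Atp5g2, one of the c-subunit genes, showed the largest difference. Its log2 signal ran from 12.07 to 12.60 in B6 (median 12.23), from 12.10 to 12.53 in R8 (median 12.24), from 11.27 to 11.62 in R2 (median 11.52) and, in D2, from 11.32 to 11.87 (median 11.51). Every array on the D2 background was below every array on the B6 background, which held for 1 of the 34 genes and for 4.89% of all probes. Atp5g2 was 1.68-fold lower on the D2 background (log2 difference -0.75, SE 0.06, adjusted p = 4.5e-13). Neither paralog was called lower on the D2 background. Atp5g1 was 1.11-fold higher on the D2 background (log2 difference 0.15, SE 0.05, adjusted p = 0.0266), with medians of 14.18 in B6, 14.19 in R8, 14.31 in R2 and 14.34 in D2 and ranges that overlapped. It was not called without R2 replicate 4 (adjusted p = 0.0583), D2 replicate 5 (0.0703) or D2 replicate 6 (0.0642). Atp5g3, also a c-subunit gene, had strain means between 16.05 and 16.08 and a difference of -0.02 (95% interval -0.06 to 0.03). The probes of Atp5b and Atp5g3 lay near the top of the signal scale, with the smallest spread among the subunits. With median scaling in place of quantiles their differences were 0.062 and 0.045, and neither was called. How large a difference such bright probes can show was not tested.

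Among the other complex V genes, Atp5h, subunit d of the peripheral stalk, was lower on the D2 background by 0.10 (SE 0.04, adjusted p = 0.0483), with medians of 14.64 in B6, 14.56 in R8, 14.51 in R2 and 14.49 in D2. It was called in 15 of 42 alternative settings, and without D2 replicate 1 the difference was -0.08 (adjusted p = 0.107). No subunit of the catalytic head was called. Atp5a1, its alpha subunit, differed by 0.03 (95% interval -0.06 to 0.13) and Atp5b, the catalytic beta subunit, by -0.01 (-0.05 to 0.04). Atp5c1, the rotating gamma subunit, differed by 0.07 (-0.01 to 0.16), Atp5d, the delta subunit, by 0.05 (-0.03 to 0.14), and Atp5e, the epsilon subunit, by 0.03 (-0.11 to 0.17). In the stalk and membrane part, Atp5o, the oligomycin sensitivity subunit, differed by 0.01 and Atp5j, coupling factor 6, by 0.00. Atp5l, Atp5j2 and Atp5k, small membrane subunits, differed by 0.01, 0.02 and 0.19. Atp5k had an unadjusted p of 0.0262 (adjusted p = 0.082) and was the only tested subunit not detected in every array (27 of 32).

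In complex IV, both genes known as muscle isoforms were lower on the D2 background. Cox7a1 ran from 8.77 to 9.42 in B6 (median 9.17), from 8.89 to 9.39 in R8 (median 9.25), from 8.45 to 8.96 in R2 (median 8.70) and, in D2, from 8.39 to 9.13 (median 8.49). Its log2 difference was -0.54 (SE 0.07, adjusted p = 2.6e-07), a 1.45-fold lower level, and the 2 backgrounds overlapped in a few arrays. This probe is dim, and without background correction the difference was -0.33 and was still called. Cox6a2 ran from 10.32 to 10.80 in B6 (median 10.65), from 10.18 to 10.73 in R8 (median 10.52), from 9.89 to 10.49 in R2 (median 10.36) and, in D2, from 9.89 to 10.30 (median 10.05). It was 1.31-fold lower on the D2 background (log2 difference -0.39, SE 0.06, adjusted p = 4.36e-06). All D2 arrays were below all B6 arrays, while R8 and R2 reached into the other background.

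The widely expressed partner isoforms were not called. Cox6a1 differed by -0.05 between backgrounds (95% interval -0.12 to 0.03), and its other tested probe by -0.08 (adjusted p = 0.153). Cox7a2 differed by 0.14 in the opposite direction to Cox7a1 (95% interval 0.02 to 0.25, adjusted p = 0.0664) and did not pass the test. Cox7a2l, which takes part in joining complexes III and IV into supercomplexes, was lower on the D2 background by 0.16 (SE 0.05, adjusted p = 0.00987). Its medians were 13.08 in B6, 13.06 in R8, 12.92 in R2 and 12.89 in D2. Cox4i1, which binds ATP as a regulatory subunit, differed by -0.03 (-0.08 to 0.03), and its partner Cox4i2 was detected in none of the 32 arrays. Cox6b1, at the dimer interface, differed by 0.02 (-0.10 to 0.14), and its second tested probe differed by 0.09 and was also not called.

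A pair of subunits at the surface of the catalytic core of complex IV moved in opposite directions. Cox5a was higher on the D2 background by 0.14 (SE 0.03, adjusted p = 0.000903), with medians of 15.31 in B6, 15.25 in R8, 15.42 in R2 and 15.43 in D2. Cox5b was lower by 0.17 (SE 0.04, adjusted p = 0.00218), with medians of 15.79 in both B6 and R8, 15.66 in R2 and 15.64 in D2. The lowest Cox5b value, 15.11, was D2 replicate 1, and the difference was -0.13 without that array. Cox5b is also the only one of the 37 genes on chromosome 1 (chr1:36691487-36693388, GRCm38.p6), whereas the donor segments lie on distal chromosome 1. The remaining complex IV genes (Cox6b2, Cox6c, Cox7b, Cox7c and Cox8a) were not called, and their differences lay between -0.03 for Cox8a and 0.14 for Cox7b.

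In complex III no gene passed the test. Cyc1, which holds the heme of cytochrome c1, differed by 0.08 (SE 0.04, adjusted p = 0.135), with medians between 13.01 in R8 and 13.10 in R2. Uqcrc2, a core protein, differed by 0.04 (95% interval -0.02 to 0.11), and Uqcrc1, the other core protein, by -0.02. Uqcrh, the hinge protein, and Uqcrb, which helps bind ubiquinone, differed by 0.03 and 0.05. For 5 of the 6 genes the 95% interval lay within 0.2 of zero. Cycs, the soluble carrier cytochrome c, was the exception, with a difference of 0.14 (-0.04 to 0.33). D2 replicate 1 was its highest D2 array (12.55), and without it the difference was 0.08. Its second tested probe differed by 0.01, so the probes of this gene did not give the same size. Uqcrfs1, the Rieske iron-sulfur protein, and Uqcrq were on the array but were detected in none of the 32 arrays. Atp5f1, subunit b of complex V, had no probe under that symbol.

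The background was then compared in 2 pairs of strains that share no array. R2 and B6 both carry the B6 segment, and D2 and R8 both carry the D2 allele of the R8 segment. In R2 against B6, 3 of 34 genes were called (19.7% of all probes), and in D2 against R8, 6 of 34 were called (19.6% of all probes). Cox6a2, Cox7a1 and Atp5g2 were called in both, 3 of 34 genes beside 13.2% of all probes. The signs matched in 23 of 34 genes (67.6%), close to the 68.2% of all probes. Atp5g2 was 1.7-fold lower in R2 than in B6 (log2 difference -0.77, SE 0.08, adjusted p = 1.81e-09) and 1.65-fold lower in D2 than in R8 (-0.72, SE 0.08, adjusted p = 6.58e-09). Cox7a1 differed by -0.48 and -0.60 in the 2 pairs (adjusted p = 0.000655 and 2.45e-05). Cox6a2 differed by -0.32 and -0.46 (adjusted p = 0.00591 and 0.000127).

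**Figure D2:**
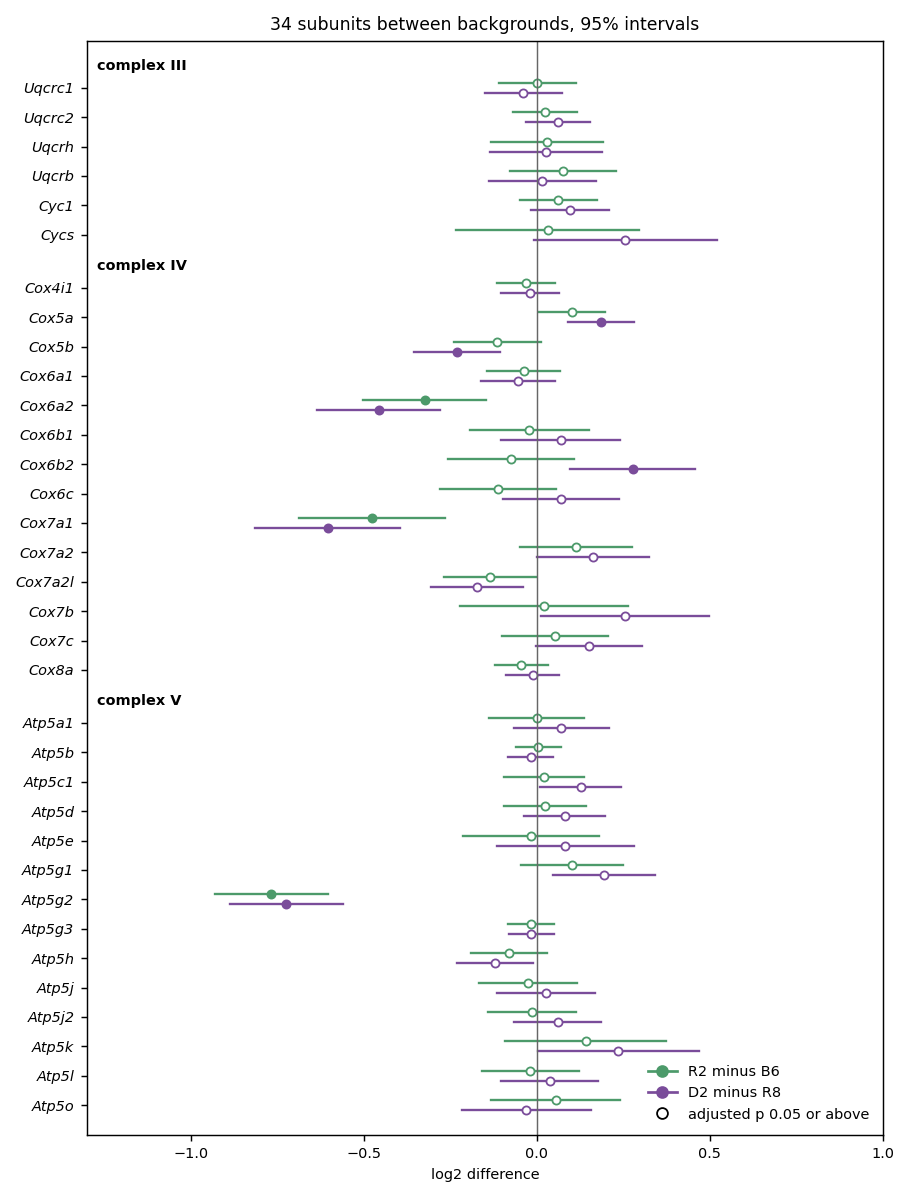
Log2 difference (x axis) of each of the 34 genes (y axis, by complex) for R2 minus B6 and for D2 minus R8, with 95% intervals; filled points have an adjusted p under 0.05. Cox6a2, Cox7a1 and Atp5g2 are filled in both comparisons, and most other intervals include zero.

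Cox5a, Cox5b and Cox6b2 were called in D2 against R8 alone. Cox5a differed by 0.18 there (adjusted p = 0.00349) and by 0.10 in R2 against B6 (adjusted p = 0.135). Cox5b differed by -0.23 (adjusted p = 0.00533) and by -0.11 (adjusted p = 0.218). Its D2 against R8 difference was -0.14 without D2 replicate 1 and was still called, and it was not called with median scaling (adjusted p = 0.0691) or by a plain t-test (0.052). The difference between the pairs did not pass the interaction test for either gene (0.08, 95% interval -0.05 to 0.22, for Cox5a and -0.12, -0.29 to 0.06, for Cox5b). Cox6b2 differed by 0.28 in D2 against R8 (adjusted p = 0.0246) and by -0.07 in R2 against B6 (adjusted p = 0.642), with an unadjusted interaction p of 0.00891 and an adjusted p of 0.498. Without D2 replicate 1 the D2 against R8 difference of Cox6b2 was 0.22 (adjusted p = 0.099), without D2 replicate 6 it was 0.24 (adjusted p = 0.0717), and in the intensities normalized by the authors it was 0.15. Nor was Cox6b2 called with the replicate block (adjusted p = 0.113), blocks of consecutive array numbers (0.0534), array weights (0.0758) or a plain t-test (0.0596). In the parental comparison of D2 with B6, 8 of 34 genes were called (20.4% of all probes), the same 8 genes as between backgrounds. With the replicate block, Cox5a (adjusted p = 0.0691) and Cox7a2l (0.0601) were not called there. That comparison shares its arrays with the others and adds no separate evidence.

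The second question was the effect of the chromosome 1 segment itself, taken as R8 against B6 and as R2 against D2. No subunit was called in either. In R8 against B6, 0 of 34 genes passed an adjusted p of 0.05 by limma's test, beside 0.081% of all probes (10 of 12351), and 2 genes had an unadjusted p under 0.05, beside 4.13% of all probes. In R2 against D2, 0 of 34 genes passed, beside 0.494% of all probes (61 of 12351), and 1 gene had an unadjusted p under 0.05, beside 15.3% of all probes. A plain t-test per probe, after Benjamini-Hochberg adjustment, also called 0 genes in each. By quantitative PCR of R8 and B6 in separate mice, the study reported a change of Cox6a2 that its arrays did not show. The 95% interval lay within 0.3 of zero for 32 of 34 genes in R8 against B6 and for 29 of 34 in R2 against D2. The interval of Cox6b2 reached -0.42 and that of Cox7b -0.43 in R8 against B6.

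**Figure D3:**
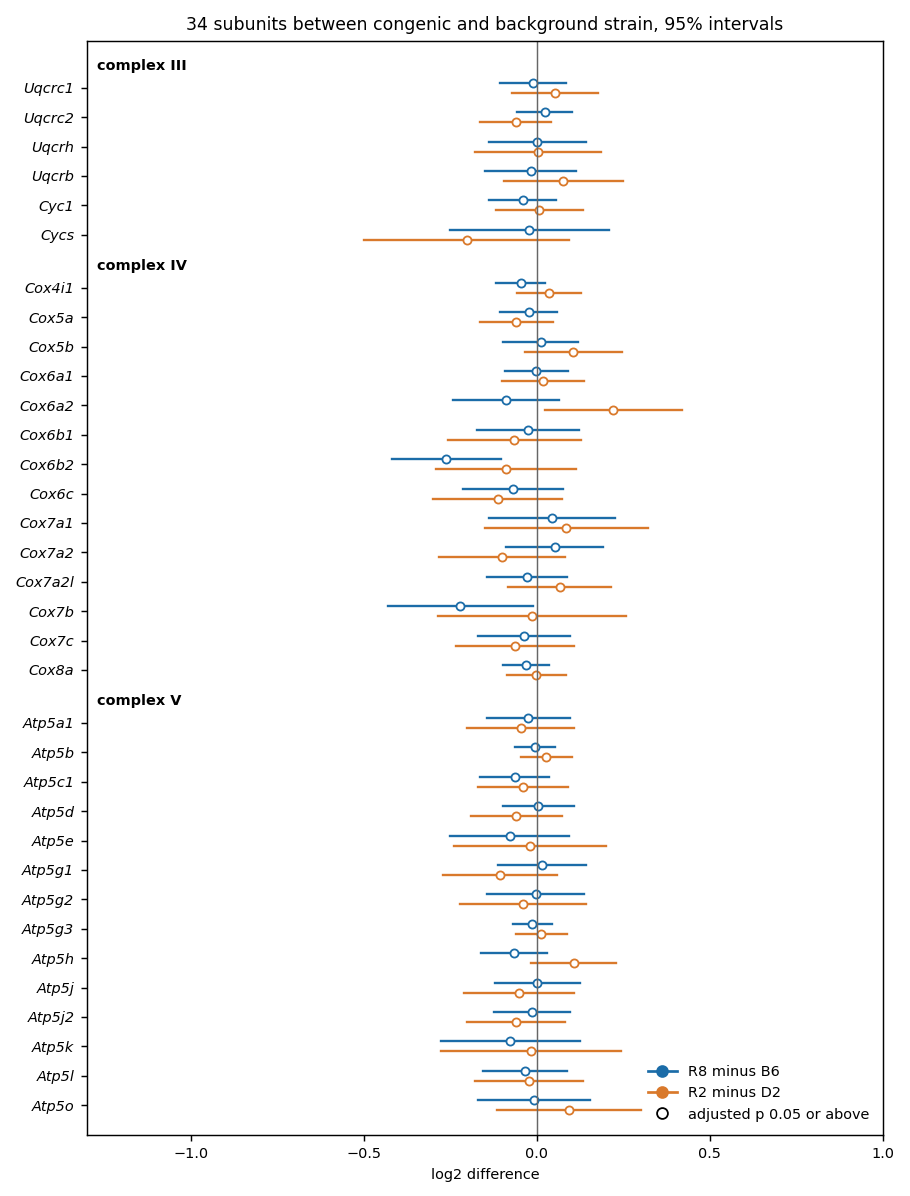
Log2 difference (x axis) of each of the 34 genes (y axis, by complex) for R8 minus B6 and for R2 minus D2, with 95% intervals; open points have an adjusted p of 0.05 or above. No point is filled, and Cox6b2 lies farthest from zero in R8 minus B6, at -0.26.

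Cox6b2 had the smallest p between R8 and B6. The array probe that measured it is shown in full, since the other Cox6b2 probe was detected in none of the 32 arrays and the values rest on this one.
Cox6b2 probe, chromosome 7, 50 bases: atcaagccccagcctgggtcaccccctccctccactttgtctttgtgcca
Its log2 signal ran from 8.29 to 8.80 in B6 (median 8.69), from 8.09 to 8.52 in R8 (median 8.39), from 8.28 to 8.72 in R2 (median 8.59) and, in D2, from 8.31 to 8.93 (median 8.63). R8 was the low strain, with ranges that overlapped. The difference between R8 and B6 was -0.26 (SE 0.08, unadjusted p = 0.00186), and it did not pass adjustment over all probes (adjusted p = 0.613). In separate mice, the study's quantitative PCR found a change of Cox6b2 opposite in direction to its array result. The probe is dim, with a median raw signal of 706.2 in B6, and in the authors' normalized intensities the difference was -0.14. Between R2 and D2, Cox6b2 differed by -0.09 (95% interval -0.29 to 0.11). Cox7b, a small membrane subunit encoded on the X chromosome, had the next smallest p between R8 and B6 (difference -0.22, SE 0.10, unadjusted p = 0.0399). Its medians were 11.86 in B6, 11.68 in R8, 11.82 in R2 and 11.89 in D2.

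The other genes in R8 against B6 had an unadjusted p of 0.05 or above. Cyc1 and Uqcrc2 of complex III differed by -0.04 and 0.02, and Atp5h and Atp5c1 of complex V by -0.07 and -0.06. Between R2 and D2, Cox6a2 was at 0.22 (SE 0.10, unadjusted p = 0.0301, adjusted p = 0.282). Cox5b differed by 0.11, Atp5h by 0.11 and Atp5g1 by -0.11, and Cycs and Uqcrc2 by -0.20 and -0.06. None of these passed the test. Without D2 replicate 1 the differences were 0.014 for Cox5b, 0.059 for Atp5h and -0.080 for Cycs, and without D2 replicate 5 that of Atp5g1 was -0.046. In the interaction, which compares the segment difference between the 2 backgrounds, 0 of 34 genes were called by limma's test, beside 0.113% of all probes (14 of 12351), and 1 gene, Cox6b2, had an unadjusted p under 0.05, beside 8.26% of all probes.

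Genes around these complexes were counted on the background comparison for reference, in which 28% of all probes were called (15.1% higher and 12.9% lower). Complex I, which feeds electrons to the chain upstream, had 7 of 32 tested subunits called, 4 higher and 3 lower on the D2 background, among them Ndufb10 (0.78) and Ndufa12 (0.48) higher and Ndufa3 (-0.22) and Ndufc2 (-0.19) lower. Complex II had 0 of 3 called. Of factors that assemble complex IV, 5 of 16 were called, 4 higher and 1 lower. Lrpprc, which stabilizes mitochondrial messenger RNA, was lower by 1.10, and Cox18, Cox14 and Cox15 were higher by 0.34, 0.10 and 0.16. Uqcc2, an assembly factor of complex III, was lower by 0.16 (1 of 4 called in its list), and Tmem70, an assembly factor of the ATP synthase, was lower by 0.48 (1 of 3 called). Of the regulators of mitochondrial transcription and biogenesis, 4 of 13 were called: the coactivator Ppargc1a (0.21) and the polymerase subunit Polg2 (0.29) were higher, and Tfb1m (-0.33) and Polg (-0.28), the catalytic subunit of that polymerase, were lower. None of 4 tested subunits outside the 38 genes was called. The medians of these lists lay between -0.11 for complex V assembly (3 genes) and 0.04 for complex II (3 genes), and the median of all probes was 0.02.

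The tissue was checked by markers of its cell types. Neuronal (5 of 8 listed), astrocyte (6 of 6) and oligodendrocyte (5 of 6) genes were tested, while probes of Gad2, Snap25 and Tubb3 were not detected. Some markers moved with the background, in which 28% of all probes were called (15.1% higher and 12.9% lower). Of 6 astrocyte genes 3 were higher on the D2 background (Slc1a2 by 0.43, Gja1 by 0.24 and Gfap by 0.46), and of 5 oligodendrocyte genes 3 were lower (Cnp by 0.30, Mobp by 0.33 and Mog by 0.21). The mean level of the oligodendrocyte list ran from 13.45 to 13.68 in B6, from 13.38 to 13.86 in R8, from 13.21 to 13.63 in R2 and, in D2, from 13.23 to 13.55. That of the astrocyte list ran from 12.30 to 12.50, from 12.34 to 12.65, from 12.37 to 12.71 and from 12.52 to 12.93 in the same order. Slc17a7 was the 1 of 5 neuronal genes called (lower by 0.28). Of 5 microglial genes 3 were called, with C1qa and Tmem119 lower and P2ry12 higher. Endothelium and pituitary had 0 of 3 and 0 of 2 called, choroid plexus 1 of 4 (Folr1, lower by 0.58), and red cells 2 of 4 (Hbb-b2 higher and Hbb-bt lower). The part of these markers in the subunit differences was not tested. For the muscle isoforms Cox6a2 and Cox7a1, skeletal muscle genes were also read. Ckm, Myh1, Myh4, Mylpf and Tnnt3 (5 of 6) were not detected, and Acta1, the sixth, was higher on the D2 background by 0.38. Cox6a2 and Cox7a1 were detected in all 32 arrays. The part of muscle tissue in their differences was not tested.

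The last question was whether the subunits vary together among brains of 1 strain. The strain mean was removed from each gene, and the residuals were correlated over the 32 arrays. The points share the array, its RNA and its normalization, and the values are descriptions with no test. Over 561 pairs the median r was 0.09, and r was above 0.5 in 12.1% of pairs, against a median of 0.00 and 2.26% over all pairs of tested probes. Among the 1366 probes with a mean signal above 13, which hold 23 of the 34 genes, 5.25% of pairs were above 0.5, and 14.6% of the pairs of those 23 genes. The share above 0.5 was 6.67% within complex III, 14.3% within complex IV and 8.79% within complex V, and it was 16.7% between III and IV, 13.1% between III and V and 10.7% between IV and V.

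**Figure D4:**
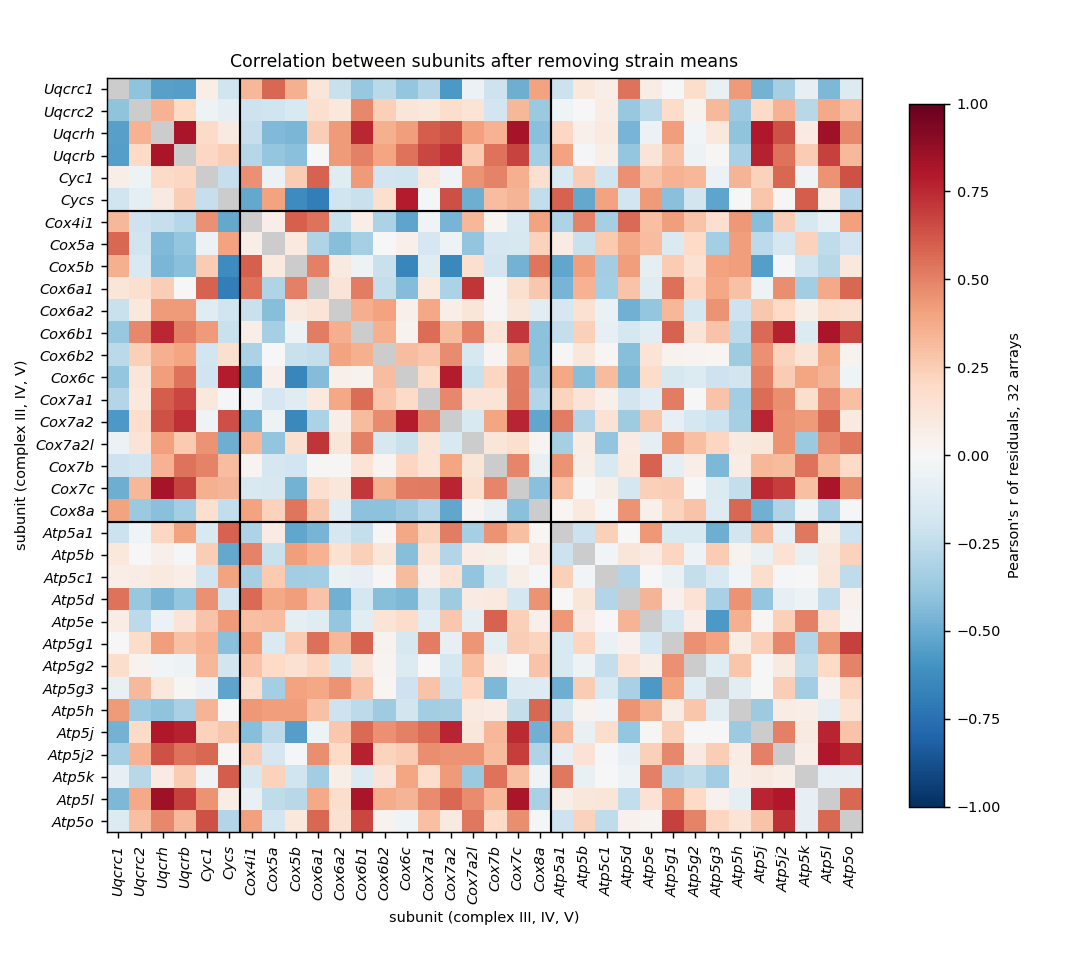
Pearson's r (colour, from -1 to 1) of residuals from the strain means over 32 arrays, for each pair of the 34 genes. Both axes list the genes, each given by 1 probe, with black lines between complexes III, IV and V. Dark red cells join Uqcrh, Uqcrb, Cox6b1, Cox7c, Atp5j, Atp5j2 and Atp5l across the 3 complexes, and Cox5b and Uqcrc1 show blue cells with many of them.

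A group of small subunits from all 3 complexes carried the highest values. Uqcrh correlated with Atp5l at r = 0.84 (rho 0.82), with Cox7c at 0.83 (rho 0.79) and with Uqcrb at 0.82 (rho 0.82). Atp5l correlated with Cox6b1 and Cox7c at 0.81 each and with Atp5j2 at 0.80. Each gene was read here by 1 probe. The other tested probe of Atp5j was highest among R8 on R8 replicate 10 (11.57), where the probe used was lowest (14.66). On D2 replicate 1 it was lowest among D2 (11.25), where the probe used was highest (15.32). Both probes of Cox6b1 were lowest among R8 on R8 replicate 10 (14.15 and 13.51). Correlations with the other probes were not computed. A further group joined Cycs, Cox6c and Cox7a2, with r = 0.79 for Cycs and Cox6c and for Cox6c and Cox7a2. Some pairs ran opposite, the most negative being Cycs with Cox6a1 (r = -0.69, rho -0.65) and Cox5b with Cox6c (-0.66, rho -0.54). D2 replicate 1 was the highest D2 array for Cycs (12.55) and Cox6c (15.96) and the lowest for Cox6a1 (15.04) and Cox5b (15.11). The correlations of these pairs were not recomputed without that array. Uqcrc1 and Cox5a had the lowest median r with the other genes, both at -0.14, and Atp5l had the highest, 0.33. Of the genes with the largest background differences, Cox7a1 was in 6 of the 68 pairs above 0.5 (the highest with Uqcrb, r = 0.67), and Atp5g2 and Cox6a2 were in 0.

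Single arrays contributed to these values. The mean deviation of the 34 genes from their strain means was lowest in R8 replicate 10 (-0.15) and highest in D2 replicate 5 (0.14), where 9 and 28 of the 34 genes lay above their strain mean. In R8 replicate 10 the complexes fell by 0.18, 0.18 and 0.11 in the order III, IV and V. That array had 11372 probes detected and the second lowest correlation with its own strain (0.9874). Without these 2 arrays the median r was 0.04 and 9.27% of pairs were above 0.5, and the pair of Uqcrh and Atp5l was at 0.79. The residual SD of the genes had a median of 0.13, against 0.16 for all probes. It ranged from 0.03 to 0.26.

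**Figure D5:**
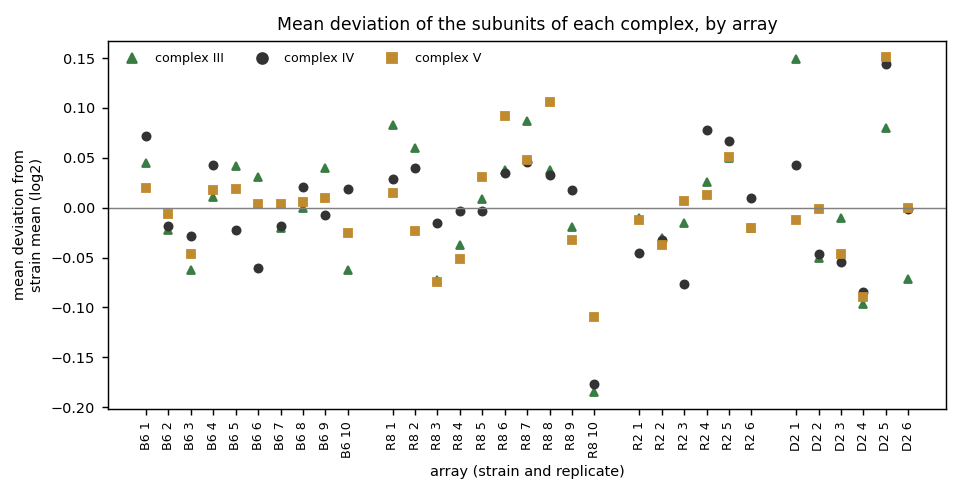
Mean deviation of the tested genes of each complex from their strain mean (y axis, log2) on each of the 32 arrays (x axis, by strain and replicate). The complexes lie together at the extremes, R8 replicate 10 (overall mean -0.15) and D2 replicate 5 (0.14), and apart on D2 replicate 1.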

How the data were processed

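Whole-brain RNA was prepared with Trizol, labelled with the Ambion MessageAmp kit and hybridized to 1 array per mouse. The deposited signal table gives the average bead intensity per probe, not normalized, with a detection p-value per probe and array, both as the authors deposited them. A second deposited table holds the intensity values that the authors normalized across all 32 arrays, with lumi per their methods, and served as an alternative. Neither table holds comparisons of the authors. The study states that outlier samples were removed from its own analysis. All 32 arrays were used here.

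Signals were processed in R 4.3.3 with limma 3.58.1: neqc (control distribution inferred from detection p-values, offset 16, quantile normalization, log2), then lmFit on the 4 strain means and eBayes over 12351 of 25697 probes. P-values were adjusted over all of these by the Benjamini-Hochberg method (threshold 0.05). A gene with several tested probes is given by its brightest one on average. The labels do not say that mice of a strain came from separate litters, so p-values measure the spread between these animals. The number of arrays limits the precision.

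Members, pathway lists and marker lists were chosen with earlier results of these data known. Genes named were those called in a comparison, the 3 smallest p per complex between backgrounds and 2 per congenic comparison, the isoform families, undetected members, and up to 4 called genes of each list. Gene symbols came from the platform annotation and positions and promoters from RefSeq (GRCm38.p6). The steps were tested on simulated data. Alternatives covered background correction, normalization, detection filter, probes, array weights, blocks, a plain two-sided t-test with equal variances and leaving out each array. Blocks of 8 neighbouring columns, the unadjusted p under 0.01 with the moderated test, and values within those blocks were chosen after seeing the data.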

Additional observations from a re-analysis of the deposited data

Results flagged for a closer look

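In 10 of 136 groups of arrays (34 genes in 4 strains), 1 array lay far from the others by Dixon's criterion, which chance alone meets in about 1 in 20 groups. R8 replicate 10 held 4 of them: it was lowest among R8 for Uqcrh (14.73, the next array at 15.07), Uqcrb (13.91, next 14.21) and Cox7c (14.39, next 14.66), and highest for Atp5d (13.76, next 13.62). D2 replicate 1 held 3: it was lowest among D2 for Cox5b (15.11, next 15.57) and Cox8a (15.78, next 15.91), and highest for Atp5c1 (14.91, next 14.64). The others were Atp5b in R8 replicate 1 (16.00, next 16.07), Atp5g1 in B6 replicate 10 (14.36, next 14.21) and Atp5g1 in R8 replicate 9 (13.91, next 14.11).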

How the results depend on the processing

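Between backgrounds, 8 genes were called, and 7 to 9 under the 11 other settings and 6 to 9 when 1 array was left out. Cox7a1, Cox6a2, Cox5a and Atp5g2 were called in all 42 alternatives, Cox5b and Cox7a2l in 41, Atp5g1 in 39 and Atp5h in 15. With median scaling in place of quantiles, Cox5b, Cox7a2l and Atp5h were no longer called (adjusted p = 0.0776, 0.052 and 0.453). With 1 array left out, the counts ran from 3 to 4 for R2 against B6, from 5 to 7 for D2 against R8 and from 6 to 9 for D2 against B6, and were 0 for R8 against B6, R2 against D2 and the interaction. D2 against B6 gave 5 genes with median scaling and 5 with these strains normalized and fitted by themselves, in place of 8. At an unadjusted p under 0.01, R8 against B6 gave 1 gene, Cox6b2, by a plain t-test and by the moderated test, and the interaction gave 1 by the moderated test. The causes were not tested.

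Replicate numbers of the sample titles were checked as a possible pairing. The deviations of same-numbered arrays correlated between -0.29 and 0.31 for B6 and R8, over 0.1 in 2 of 10 pairs. For R2 and D2 the correlations were over 0.1 in 4 of 6 pairs. The array names hold another number before the strain, and pairing by it was not examined. With the replicate block, 7 genes were called between backgrounds, 3 in R2 against B6, 6 in D2 against R8, 6 in D2 against B6 and 0 in the others. In D2 against R8 the block lost Cox6b2 (adjusted p = 0.113) and gained Cox7b (0.0478), and in D2 against B6 it lost Cox5a (0.0691) and Cox7a2l (0.0601). Each array correlated best with its own number in 2 of 10 and 2 of 6 cases. Within blocks of 8 neighbouring columns of the table, each of the 8 called genes kept its sign in 4 of 4 blocks. The genes were called on these same arrays, so the signs add no separate evidence. With these blocks as a term 9 genes were called.

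Genes that were not called and lay near zero between backgrounds changed sign. Median scaling gave 0.013 for Uqcrc1, 0.018 for Cox4i1, 0.043 for Cox6c, 0.012 for Cox8a, 0.062 for Atp5b and 0.045 for Atp5g3. Array weights gave -0.00032 for Uqcrh, -0.032 for Atp5j and -0.0068 for Atp5l. Atp5j was also at -0.018 with blocks of array numbers and at -0.025 with the replicate block. Leaving out 1 array gave ranges of -0.0056 to 0.048 for Uqcrh, -0.013 to 0.051 for Cox6b1, -0.062 to 0.0094 for Cox6c, -0.0048 to 0.054 for Atp5e, -0.035 to 0.026 for Atp5j, -0.011 to 0.031 for Atp5l and -0.028 to 0.042 for Atp5o. Dim probes (Cox7a1, Cox6b2) gave smaller differences without background correction.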
